A study of Mus musculus with 35 samples.

Results

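Metallothioneins and the carriers, receptors and stores of zinc and iron were followed in spinal motoneurons of SOD1 G93A mice, a model of amyotrophic lateral sclerosis (ALS). The list held 10 genes, namely Mt1, Mt2, Mt3, Slc30a1, Slc30a3, Tfrc, Fth1, Ftl1, Slc11a2 and Slc40a1. All transcripts, as the probe sets of the array are called here, whose annotation named exactly 1 gene of this list were taken. They numbered 21, for 9 of the 10 genes, out of 34958 transcripts and 18194 genes with such an annotation in the whole series. Each of the 3 Ftl1 transcripts also named further genes, so the ferritin light chain has no value here. The study itself lists Ftl1 transcripts as higher in SOD1 mice at both ages it examined.

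About 300 motoneurons per mouse had been cut by laser from the lumbar cord of 35 female mice, with 1 array per mouse. WT mice were labelled C57BL/6J, and SOD1 mice were hemizygous for the high-copy B6.Cg-Tg(SOD1-G93A)1Gur/J transgene, so their cells make human mutant SOD1 beside the mouse enzyme. Untreated SOD1 mice (n = 8) and WT littermates (n = 6) were taken at week 11 of age. At week 15 the groups were SOD1 mice with vehicle (n = 7), SOD1 mice with G-CSF (n = 7) and WT mice (n = 7). G-CSF (filgrastim) or vehicle had been given for 4 weeks by a subcutaneous osmotic minipump, and no pump is stated for the WT mice. Age, cohort and (for SOD1 mice) the pump therefore cannot be told apart. Between SOD1 and WT mice of week 15, genotype and pump cannot be told apart either, as far as stated. Levels are log2 intensities, and differences are log2 differences between group means. They were tested with limma over 31352 of 45101 transcripts that passed a filter on dim and unvarying ones. A transcript was called at a fold change of at least 1.5 with p under 0.05 and an adjusted p under 0.1. Of the 21 member transcripts, 19 passed the filter, for 8 genes.

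Metallothioneins are small cysteine-rich proteins that bind zinc and copper. Mt1 and Mt2 are switched on by the zinc sensor Mtf1 and by glucocorticoids and oxidants, and in the nervous system they are well known from astrocytes, whereas Mt3 is the form typical of the brain. Zinc leaves the cytosol through Slc30 carriers, of which Slc30a1 sits in the plasma membrane and Slc30a3 loads synaptic vesicles. Iron enters neurons bound to transferrin through the receptor Tfrc, crosses the endosomal membrane through Slc11a2 (DMT1), is stored in ferritin, of which Fth1 is the heavy chain, and leaves through ferroportin, Slc40a1. When iron is scarce, iron regulatory proteins stabilise the Tfrc message and hold back translation of ferritin. SOD1 is itself an enzyme that carries copper and zinc.

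The 3 metallothionein genes lie next to each other on chromosome 8, with Mt4 before Mt3, and a noncoding gene between Mt3 and Mt2. The 250 bases before the start of Mt1 and Mt2 in RefSeq (GRCm38.p6) are shown, along with those of Slc30a1, another known target of Mtf1. Whether Mtf1 had a part in any of the values that follow was not tested. Capitals mark the core of the metal response element that Mtf1 binds, searched on both strands as TGCACNC and TGCGCNC. The windows are chr8:94172368-94172617 for Mt2, chr8:94178839-94179088 for Mt1 and chr1:191906531-191906780 for Slc30a1, all on the plus strand.
Mt2: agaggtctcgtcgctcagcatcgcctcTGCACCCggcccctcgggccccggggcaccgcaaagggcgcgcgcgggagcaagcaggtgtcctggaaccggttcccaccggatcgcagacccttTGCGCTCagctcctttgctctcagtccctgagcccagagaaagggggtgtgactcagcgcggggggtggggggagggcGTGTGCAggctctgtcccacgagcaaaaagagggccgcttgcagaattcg
Mt1: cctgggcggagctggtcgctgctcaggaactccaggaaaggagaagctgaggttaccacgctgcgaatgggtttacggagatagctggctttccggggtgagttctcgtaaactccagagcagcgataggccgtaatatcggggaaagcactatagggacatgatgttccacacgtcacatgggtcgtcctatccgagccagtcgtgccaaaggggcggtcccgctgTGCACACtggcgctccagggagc
Slc30a1: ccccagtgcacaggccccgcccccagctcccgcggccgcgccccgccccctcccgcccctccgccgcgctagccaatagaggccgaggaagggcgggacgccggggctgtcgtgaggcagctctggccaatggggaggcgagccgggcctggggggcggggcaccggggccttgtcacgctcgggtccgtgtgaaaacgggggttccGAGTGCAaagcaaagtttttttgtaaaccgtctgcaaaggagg
The Mt2 window held 3 cores, beginning 223, 128 and 50 bases before the start, the last of them on the opposite strand. The Mt1 window held 1, beginning 23 bases before the start, and that of Slc30a1 held 1 on the opposite strand, at 43 bases. None of these cores overlapped another. Of 32851 windows of this length, 21.4% held at least 1 core and 1.26% at least 3. The Mt3 window, both windows of Fth1 and that of Ftl1 held none. Of the pairs of windows for Tfrc and Slc30a3, 1 window each held cores, and the 2 cores of Tfrc were overlapping letters read on both strands. Windows were listed for 8 of the 10 genes, not for Slc11a2 and Slc40a1. Each window ends at the start of its RefSeq entry, which may not be the main start of Mt1 or Mt2, so the counts and distances hold for these windows and not for the whole promoters.

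Markers of motoneurons, neurons, astrocytes and oligodendrocytes mostly lay above the median of their array in every mouse. All 10 measured motoneuron markers and all 11 neuron markers lay above the 20th centile of their array in every mouse. Astrocyte markers (12 of 12), oligodendrocyte markers (8 of 9), microglia markers (10 of 15), endothelial markers (7 of 10) and red blood cell markers (1 of 2) did so too, and no marker of any list lay below it in every mouse. The 20th centile is a low limit, which most transcripts of an array exceed by definition. Above the array median in every mouse were 8 of 10 motoneuron, 11 of 11 neuron, 11 of 12 astrocyte and 8 of 9 oligodendrocyte markers. So were 5 of 15 microglia, 5 of 10 endothelial and 0 of 2 red blood cell markers. Chat, the enzyme that makes acetylcholine, was not among the 8 motoneuron markers, with group means of 3.07 to 3.44. In pooled material, more cells of another type and more RNA per motoneuron cannot be told apart. Among week 11 WT mice number 6, and among vehicle mice numbers 3 and 5, stood apart, with median correlations of 0.918 to 0.924 with the arrays of their group, and values without them are given where they moved a result. G-CSF mouse 3, which was kept, also had 0.924, so this measure alone does not single out the 3 arrays that were left out.

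At week 15, the metallothioneins Mt1 and Mt2 were higher in vehicle-treated SOD1 mice than in WT mice, by 1.60-fold and 2.43-fold. The receptor Tfrc was lower, by 2.42-fold at its brightest transcript. In all, 5 of 19 member transcripts were called, where 5.91% of all transcripts were. The 2 higher were those of Mt1 and Mt2, with 1.72% of all transcripts called higher, and the 3 lower were all of Tfrc, with 4.20% called lower. The median difference of the 19 was -0.06, against 0.02 over all transcripts. Mt3, Slc30a1, Fth1, Slc11a2 and Slc40a1 had no called transcript in this comparison. By the Tukey comparison that the study's methods name, with its own p adjusted, none of the 5 was called (adjusted p = 0.505 for Mt1 and 0.296 for Mt2), and with the false discovery rate of the test over all 5 groups, a setting chosen after the data were seen, all 5 were.

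**Figure D1:**
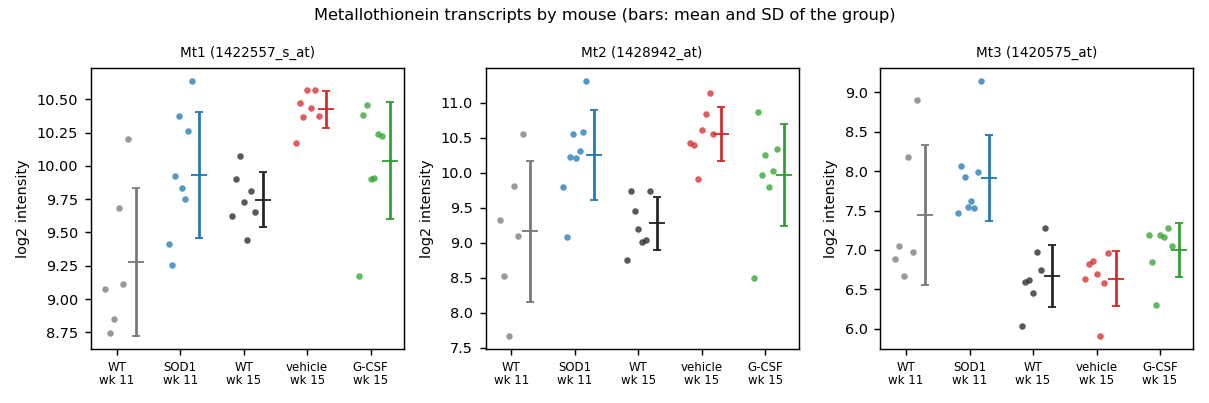
Log2 intensity of Mt1 (1422557_s_at), Mt2 and Mt3 in each mouse (points) by group on the x axis, with the group mean and SD as bars. For Mt1 and Mt2 all 7 vehicle-treated mice lay above all 7 WT mice of week 15, whereas the Mt3 ranges of these groups overlapped.

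Mt2 (1428942_at) ranged from 8.76 to 9.74 in WT mice of week 15, with a median of 9.20. In vehicle-treated SOD1 mice it ranged from 9.92 to 11.15, with a median of 10.55. Every vehicle-treated mouse was thus higher than every WT mouse. The group means of 10.56 ± 0.38 (SD, n = 7) and 9.28 ± 0.38 (SD, n = 7) differed by 1.28 (SE 0.34, 95% CI 0.59 to 1.97, adjusted p = 0.0274 from limma). The call stood in all 35 fits that each left out 1 mouse, with differences of 1.18 to 1.39.

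Mt1 (1422557_s_at) ranged from 9.44 to 10.08 in WT mice, with a median of 9.73, and from 10.17 to 10.57 in vehicle-treated mice, with a median of 10.44. Again all 7 vehicle-treated mice lay above all 7 WT mice, and the vehicle group was tight, with an SD of 0.14. The means differed by 0.68 (SE 0.21, 95% CI 0.25 to 1.10, adjusted p = 0.0631 from limma). The call was lost without WT mouse 1, 5 or 7 or without vehicle mouse 6, where adjusted p values were 0.101, 0.11, 0.105 and 0.103 and the difference was 0.63 to 0.66. The second Mt1 transcript (1451612_at) was dim, with group means of 3.32 to 3.58, and its difference of 0.26 (SE 0.18, adjusted p = 0.438) was not called.

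The same 2 genes had the lowest p values among the members at week 11, before motor signs, but neither passed here. The study, which used another test, lists both among the transcripts altered at both ages. None of 19 member transcripts was called, with 1.32% of all transcripts called, and 2 of 19 had an unadjusted p under 0.05, with 11.0% of all transcripts under it. Mt2 ranged from 7.67 to 10.56 in WT mice (median 9.22) and from 9.08 to 11.32 in SOD1 mice (median 10.27), so the ranges overlapped widely. The difference was 1.09 (SE 0.34, 95% CI 0.40 to 1.79, adjusted p = 0.146 from limma). For Mt1 it was 0.65 (SE 0.21, adjusted p = 0.166), with 8.74 to 10.20 in WT and 9.25 to 10.64 in SOD1 mice. Without WT mouse 6, the difference of Mt2 was 1.37 and that of Mt1 0.84, each called (adjusted p = 0.0537 for both). Mt2 alone was also called without SOD1 mouse 2, WT mouse 4 or G-CSF mouse 1, with adjusted p values of 0.0862, 0.0942 and 0.0964. Array weights called Mt1, Mt2 and Mt3.

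The difference between the SOD1 effects of the 2 ages was itself tested, and neither Mt2 nor Mt1 was called. It was 0.18 for Mt2 (SE 0.48, 95% CI -0.80 to 1.17) and 0.02 for Mt1 (SE 0.30, 95% CI -0.59 to 0.63). Of the 19 member transcripts none was called in this test, with 2.93% of all transcripts called, and 3 had an unadjusted p under 0.05, with 18.1% of all transcripts under it. The 3 were Tfrc 1452661_at with -1.14, Fth1 1427021_s_at with -1.35 and Slc11a2 1426441_at with 0.87. Without the 3 arrays that stood apart, the Tfrc value was -0.75 and that of Fth1 -0.62.

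Mt3 (1420575_at) was not called at either age. At week 11 its level was 7.45 ± 0.89 (SD, n = 6) in WT mice, and SOD1 mice stood at 7.91 ± 0.55 (SD, n = 8). At week 15 it was 6.67 ± 0.40 (SD, n = 7) in WT, 6.64 ± 0.35 (SD, n = 7) with vehicle and 7.00 ± 0.34 (SD, n = 7) with G-CSF. Vehicle-treated and WT mice differed by -0.04 (SE 0.28, 95% CI -0.60 to 0.53, adjusted p = 0.961 from limma), and the SOD1 mice of week 11 stood at 0.47 (SE 0.28, adjusted p = 0.583) over WT, and at 0.76 (adjusted p = 0.188) without the 3 arrays that stood apart.

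Across the 35 arrays Mt2 was most like Mt1, with a Pearson correlation of 0.862 overall and 0.846 after the group means were taken out. The next genes were Fads3, with 0.836, and Gap43, a growth cone protein, with 0.821. These are descriptions, since the arrays share groups, dissection and amplification. Mt3 correlated with Mt2 at 0.27 overall and at 0.461 after the group means were taken out.

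Some markers of glia were higher in the same comparison as Mt1 and Mt2, and others were not. Of 12 astrocyte markers 5 stood higher and 7 lower, called or not, with a median difference of -0.08. Of 9 oligodendrocyte markers 2 stood higher and 7 lower (median -0.28), and all 13 tested microglia markers stood higher (median 0.69). Gfap, the filament protein of reactive astrocytes, was 4.78 ± 1.07 (SD, n = 7) in WT and 8.48 ± 0.96 (SD, n = 7) in vehicle-treated mice, a called difference of 3.70 (SE 0.57). It was also called at week 11, by 2.14 (SE 0.57), and with G-CSF against WT, by 2.78 (SE 0.57). It was the only called marker of 12 for astrocytes in each of these 3 comparisons, and the summed astrocyte level overlapped between the groups, with 88.79 to 98.68 in WT, 92.48 to 99.7 with vehicle and 87.51 to 96.12 with G-CSF. At week 11 the summed astrocyte level was 89.67 to 96.41 in WT and 90.38 to 101.1 in SOD1 mice. Of 13 tested microglia markers, 6 were called higher with vehicle (Csf1r, Ctss, Tyrobp, C1qb, C1qc and Lyz2), with 1.72% of all transcripts called higher. Their summed level over 15 measured ran from 51.15 to 56.43 in WT and from 56.91 to 74.59 with vehicle. At week 11 no microglia marker was called, with 1.32% of all transcripts called. The part of either cell type in the metallothionein values was not tested.

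**Figure D2:**
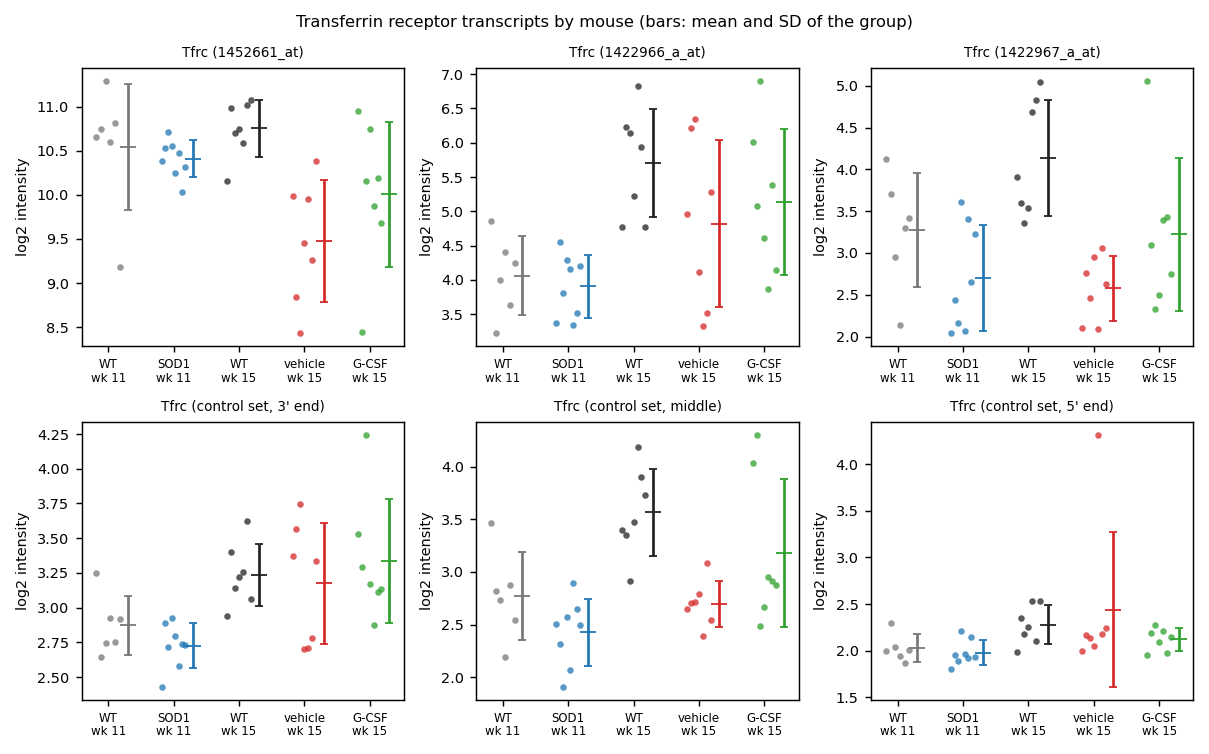
Log2 intensity of the 6 Tfrc transcripts in each mouse (points) by group, with the group mean and SD as bars, each panel on its own scale. At 1452661_at, 6 of 7 vehicle-treated mice lay below all WT mice of week 15, and at 1422967_a_at all 7 did.

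The transferrin receptor was lower in vehicle-treated SOD1 mice than in WT mice of week 15 at some of its transcripts. At its brightest transcript (1452661_at), WT mice ranged from 10.16 to 11.08, with a median of 10.75, and vehicle-treated mice from 8.43 to 10.38, with a median of 9.46. All but 1 vehicle-treated mouse lay below every WT mouse. The difference was -1.28 (SE 0.31, 95% CI -1.90 to -0.66, adjusted p = 0.0144 from limma), and it was called in each of the 35 fits without 1 mouse, at -1.43 to -1.10.

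Of the other Tfrc transcripts that passed the filter, 2 were called lower and 2 were not. Transcript 1422967_a_at ranged from 3.36 to 5.04 in WT and from 2.09 to 3.06 with vehicle, with no overlap, and differed by -1.56 (SE 0.35, adjusted p = 0.00978 from limma). The middle section of the Tfrc control set on the array ranged from 2.91 to 4.19 in WT and from 2.39 to 3.09 with vehicle and differed by -0.87 (SE 0.23, adjusted p = 0.0303). All vehicle values of both transcripts lay below the lowest array median of 3.19, and the 20th centiles of the arrays were 2.31 to 2.57, so the size of these differences is uncertain. From week 11 to week 15, the group mean of 1422967_a_at went from 2.699 to 2.578 in SOD1 mice (vehicle at week 15). In WT mice it went from 3.271 to 4.137. The mean of the middle section went from 2.425 to 2.697 in SOD1 mice and from 2.771 to 3.565 in WT mice. Transcript 1422966_a_at stood at -0.88 (SE 0.45, adjusted p = 0.272) and the 3′ section of the control set at -0.06 (SE 0.18, adjusted p = 0.884). The 5′ section did not pass the filter, with group means of 1.98 to 2.44.

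Over the 35 arrays the brightest Tfrc transcript tracked none of the others closely. Its Pearson correlation was 0.347 with 1422967_a_at, -0.045 with 1422966_a_at, 0.05 with the middle and -0.161 with the 3′ section of the control set, and within groups these were 0.092, -0.076, -0.184 and -0.05. The genes most like the brightest transcript were Asph (0.835), Snx10 (0.818) and Rap1gds1 (0.818). At week 11 the brightest transcript did not separate the groups, where SOD1 mice stood at 10.41 ± 0.21 (SD, n = 8) and WT mice at 10.55 ± 0.71 (SD, n = 6), the means lying -0.14 apart (SE 0.31, adjusted p = 0.938 from limma), or -0.41 (adjusted p = 0.904) without WT mouse 6. The change of the SOD1 effect from week 11 to week 15 was -1.14 (SE 0.43, adjusted p = 0.168 from limma) and was not called.

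Neuronal markers were lower in the same comparison as Tfrc. Of 11 neuron markers, Nefm, Rbfox3 and Map2 were called lower, and of 10 motoneuron markers Mmp9 and Chodl were. Of all transcripts, 4.20% were called lower in this comparison and 1.72% higher. The summed neuron level ran from 112.5 to 117.9 in WT and from 102.2 to 114.2 with vehicle, and the summed motoneuron level from 70.99 to 75.31 and from 62.26 to 71.95. Of 9 oligodendrocyte markers only Olig1 was called, lower, and of 9 endothelial markers only Slc2a1, higher. The part of these cells in the Tfrc values was not tested. Without the 3 arrays that stood apart, the same 5 transcripts of Mt1, Mt2 and Tfrc were called, together with Slc11a2 1426441_at.

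**Figure D3:**
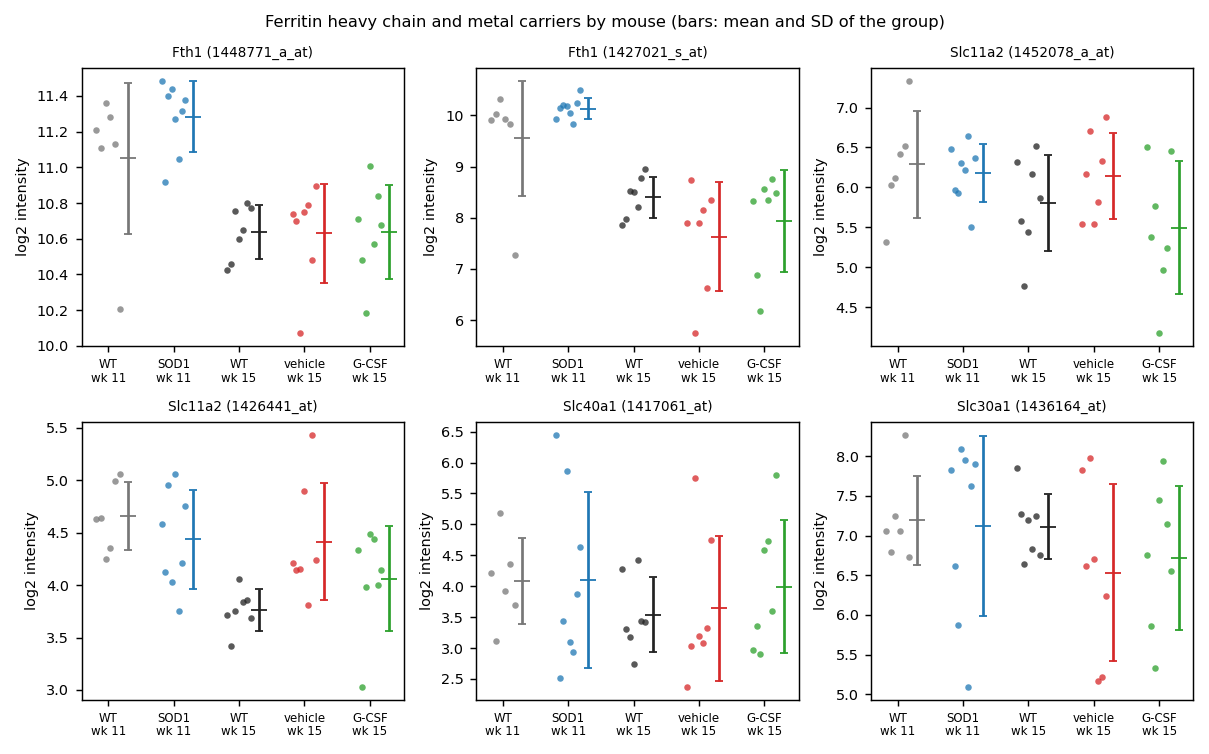
Log2 intensity of both Fth1 transcripts, 2 of Slc11a2, and the brightest of Slc40a1 and Slc30a1 in each mouse (points) by group, with the group mean and SD as bars, each panel on its own scale. The Fth1 group means of week 15 lay below those of week 11, and WT mouse 6 of week 11 is the low point of its group in both Fth1 panels.

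Ferritin heavy chain did not separate SOD1 from WT mice at either age. At the brightest Fth1 transcript (1448771_a_at), WT mice of week 15 stood at 10.64 ± 0.15 (SD, n = 7), vehicle-treated mice at 10.63 ± 0.28 (SD, n = 7) and G-CSF-treated mice at 10.64 ± 0.26 (SD, n = 7). The difference between vehicle and WT was -0.01, with a 95% CI of -0.32 to 0.31. For this transcript, that excludes a change of 1.5-fold (0.58 on the log2 scale) in either direction. At week 11 the level was 11.05 ± 0.42 (SD, n = 6) in WT and 11.28 ± 0.20 (SD, n = 8) in SOD1 mice, 0.23 apart (SE 0.16, adjusted p = 0.643 from limma). The second transcript (1427021_s_at) stood at -0.77 (SE 0.42, 95% CI -1.63 to 0.09, adjusted p = 0.314 from limma) with vehicle at week 15. A 1.5-fold lower level was thus not excluded there. In SOD1 mice of week 11 this transcript stood at 0.58 (SE 0.43, adjusted p = 0.691). Without WT mouse 6, which was the lowest of its group at both transcripts, the differences of week 11 were 0.06 and 0.13. The 2 transcripts had a Pearson correlation of 0.923 over the 35 arrays.

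Of the 4 transcripts of the iron carrier Slc11a2, 1426441_at came closest to a call. It ranged from 3.42 to 4.06 in WT mice of week 15 and from 3.81 to 5.44 with vehicle, with 6 of 7 vehicle-treated mice above all WT mice. From week 11 to week 15, the group mean of this transcript went from 4.436 to 4.414 in SOD1 mice (vehicle at week 15). In WT mice it went from 4.656 to 3.762. The difference between vehicle-treated and WT mice of week 15 was 0.65 (SE 0.23, adjusted p = 0.103 from limma). It was called without the 3 arrays that stood apart (0.82, adjusted p = 0.0547) and in 7 of 35 fits without 1 mouse. The brightest transcript (1452078_a_at) stood at 0.34 (SE 0.32, adjusted p = 0.587), and 1417584_at and 1441709_at at -0.10 and -0.02.

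The exporters had no call between SOD1 and WT mice. The brightest Slc40a1 transcript (1417061_at) ranged from 2.74 to 4.42 in WT mice of week 15 and from 2.37 to 5.75 with vehicle, and differed by 0.10 (SE 0.54). Its second transcript (1448566_at) was dim, with group means of 2.47 to 2.75, and stood at -0.07 (95% CI -0.58 to 0.43). The brightest Slc30a1 transcript (1436164_at) ranged from 6.64 to 7.85 in WT and from 5.16 to 7.97 with vehicle, and differed by -0.58 (SE 0.46, 95% CI -1.51 to 0.35). The second (1422786_at) was dim, with group means of 2.71 to 3.22, and stood at -0.07 (95% CI -0.40 to 0.25). At the brightest transcripts of both genes the 95% CI included a 1.5-fold change, which was thus not excluded. The second transcripts had narrower intervals but lay near or below the array medians of 3.19 to 3.47. Their intervals therefore cannot exclude such a change in the genes. Slc30a3 varied too little to pass the filter, with group means of 4.76 to 4.98.

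**Figure D4:**
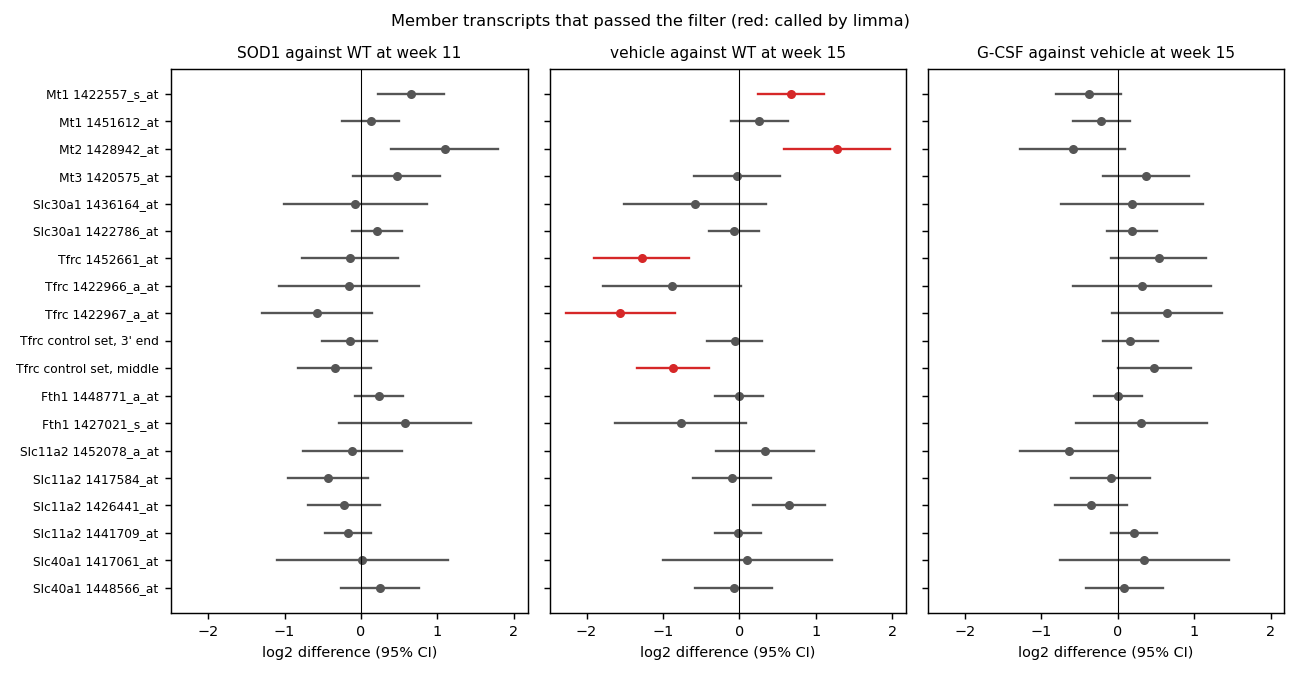
Log2 differences (points) with 95% CI (lines) from limma for the 19 member transcripts that passed the filter, in 3 comparisons, with called transcripts in red. The 5 called transcripts, of Mt1, Mt2 and Tfrc, are all in the comparison of vehicle-treated SOD1 mice with WT mice of week 15.

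With G-CSF, none of the 19 member transcripts differed from vehicle by the call, where 0.0383% of all transcripts were called. An unadjusted p under 0.05 was reached by 2 of 19 (limma), with 8.30% of all transcripts under it. These were the middle section of the Tfrc control set, with 0.48 (SE 0.23), and Slc11a2 1452078_a_at, with -0.64 (SE 0.32), and their adjusted p was 0.599 for each. Comparisons of vehicle with WT and of G-CSF with vehicle share the vehicle-treated mice, so each is given by its own values.

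Mt2 ranged from 8.504 to 10.87 in G-CSF-treated mice, with a median of 10.03. Its difference from vehicle was -0.59 (SE 0.34, 95% CI -1.28 to 0.10, adjusted p = 0.672 from limma), with 2 of 7 mice below all vehicle-treated mice. For Mt1 the difference was -0.38 (SE 0.21, 95% CI -0.81 to 0.05, adjusted p = 0.653), with 3 of 7 below. Without G-CSF mouse 1, the lowest of its group for both genes, the differences were -0.35 for Mt2 (adjusted p = 0.837) and -0.24 for Mt1 (adjusted p = 0.815). For the brightest Tfrc transcript, which ranged from 8.45 to 10.95 with a median of 10.16, it was 0.53 (SE 0.31, 95% CI -0.09 to 1.15, adjusted p = 0.671), with 2 of 7 above. All 3 intervals include 0 and a change of over 1.5-fold, so neither an effect of that size nor its absence was shown.

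Against WT mice of week 15, none of the 19 was called in G-CSF-treated mice either, with 1.13% of all transcripts called, and 2 had an unadjusted p under 0.05 (limma), with 12.7% of all transcripts under it. Both were of Tfrc, 1452661_at with -0.74 (SE 0.31, adjusted p = 0.286) and 1422967_a_at with -0.92 (SE 0.35, adjusted p = 0.245). Without G-CSF mouse 1, the latter was called at -1.22 (adjusted p = 0.0444). Mt2 stood at 0.69 (SE 0.34, adjusted p = 0.395), with 6 of 7 mice above all WT mice.

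Some members differed between the WT cohorts of the 2 ages. Of 19 transcripts 3 were called, with 5.56% of all transcripts called. They were Tfrc 1422966_a_at, higher at week 15 by 1.64 (SE 0.46, adjusted p = 0.0364 from limma), the middle section of the Tfrc control set, higher by 0.79 (SE 0.24, adjusted p = 0.0573), and Slc11a2 1426441_at, lower by a log2 difference of -0.89 (SE 0.24, adjusted p = 0.0261), with all 7 mice of week 15 below those of week 11. For Fth1 the differences were -0.41 (SE 0.16, adjusted p = 0.15) and -1.15 (SE 0.44, adjusted p = 0.143), and for Mt3 -0.77 (SE 0.29, adjusted p = 0.132). Mt1 stood at 0.47 (SE 0.22, adjusted p = 0.255). Without WT mouse 6 of week 11, Fth1 1427021_s_at was called at -1.61 (adjusted p = 0.0127) and Mt1 at 0.65 (adjusted p = 0.0633), and Fth1 1448771_a_at stood at -0.58 (adjusted p = 0.0106), short of the fold change. Array weights also called Fth1 1427021_s_at and Mt1. The 18S ribosomal RNA control was 10.12 ± 0.68 (SD, n = 6) at week 11 and 13.13 ± 0.26 (SD, n = 7) at week 15 in WT mice. With it as a covariate none of the 3 calls stood, and over all transcripts 36 were called, against 1743 without it. Since the control itself differed this far between the cohorts, the covariate takes out much of any difference between them. This setting therefore cannot decide on the 3 calls. Of 9 oligodendrocyte markers, 3 were higher at week 15 in WT mice, and their part was not tested.

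**Figure D5:**
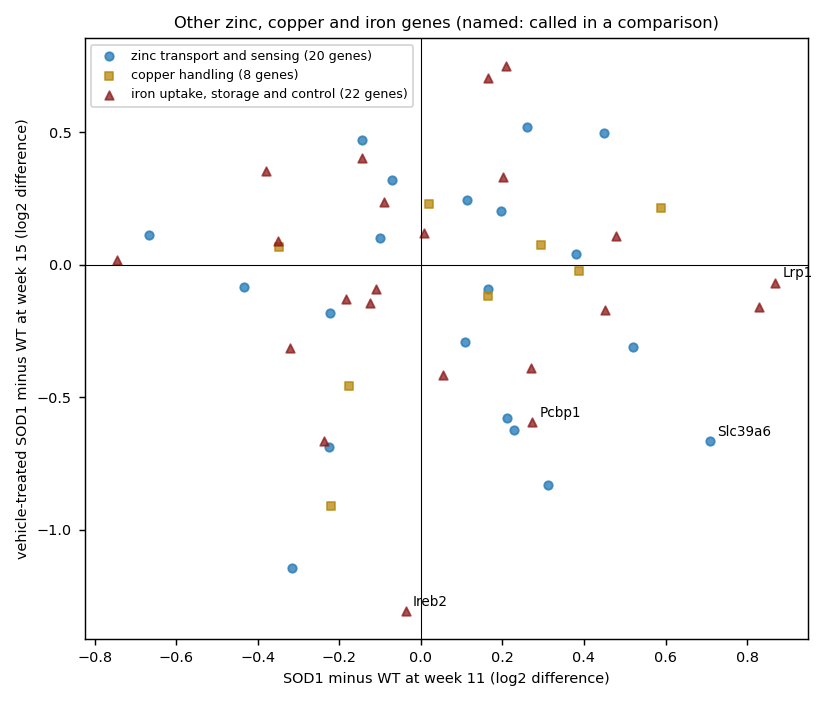
Log2 difference of SOD1 from WT mice at week 11 (x axis) and of vehicle-treated SOD1 from WT mice at week 15 (y axis) for 50 other genes of zinc, copper and iron handling, 1 point a gene. Lrp1 lies to the right and Ireb2 and Pcbp1 low. Slc39a6, called for the difference between the ages, is at 0.71 and -0.67.

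Few other genes of metal handling were called. Of 58 listed, 50 were tested at their brightest transcript, 20 for zinc transport and sensing, 8 for copper handling and 22 for iron uptake, storage and control. At week 11, 1 of 50 was called, with 1.32% of all transcripts called, and 10 had an unadjusted p under 0.05 (limma), with 11.0% of all transcripts under it. The list for iron had a median difference of -0.02, that for zinc 0.14 and that for copper 0.09, against -0.01 over all transcripts. At week 15, 2 of 50 were called lower with vehicle, a share near the 4.20% of all transcripts called lower, and 14 had an unadjusted p under 0.05, with 19.5% of all transcripts under it. The medians were -0.08, -0.09 and 0.02. With G-CSF against vehicle none of the 50 was called, and 3 had an unadjusted p under 0.05, with 8.30% of all transcripts under it.

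The gene called at week 11 was Lrp1, a large endocytic receptor that also takes up haem bound to hemopexin. It ranged from 4.87 to 5.94 in WT and from 5.68 to 6.70 in SOD1 mice, with 7 of 8 SOD1 mice above all WT mice, and rose by 0.87 (SE 0.15, adjusted p = 0.00238 from limma). At week 15 it stood at -0.07 (SE 0.15), and the difference between the ages was -0.94 (SE 0.21, adjusted p = 0.0417). From week 11 to week 15, the group mean of Lrp1 went from 6.375 to 5.853 in SOD1 mice (vehicle at week 15) and from 5.506 to 5.921 in WT mice. Its dim second transcript (1442849_at) stood at -0.15 (SE 0.70) at week 11.

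Ireb2 and Pcbp1 were lower in vehicle-treated mice at week 15. Ireb2 encodes an iron regulatory protein that binds the Tfrc message, and Pcbp1 an RNA-binding protein that also hands iron to ferritin. Ireb2 ranged from 6.92 to 8.34 in WT and from 4.54 to 7.63 with vehicle, and differed by -1.31 (SE 0.40, adjusted p = 0.0546 from limma). Pcbp1 ranged from 10.88 to 11.08 in WT and from 9.45 to 10.93 with vehicle, and differed by -0.59 (SE 0.17, adjusted p = 0.0453), just past the limit for the fold change. Ireb2 was not called without vehicle mouse 3 or 6 or WT mouse 6, with adjusted p values of 0.122, 0.134 and 0.108, nor when the 2 groups were fitted alone (adjusted p = 0.145). Pcbp1 was not called without vehicle mouse 3 or 6 or WT mouse 4, at -0.44, -0.56 and -0.57, and without the 3 arrays that stood apart, at -0.40.

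Slc39a6, a carrier that brings zinc into the cytosol, was called only for the difference between the ages, at -1.38 (SE 0.39, adjusted p = 0.0785 from limma). It stood at 0.71 (SE 0.28, adjusted p = 0.293) at week 11 and at -0.67 (SE 0.28, adjusted p = 0.167) at week 15. These values are of its brightest transcript. Between the ages, its dimmer transcripts 1424675_at and 1441949_x_at stood at -0.34 (SE 0.66, adjusted p = 0.813) and 0.38 (SE 0.60, adjusted p = 0.766), not called. The change of Pcbp1 between the ages was -0.87 (SE 0.25, adjusted p = 0.0773). Without the 3 arrays that stood apart, neither was called, at -1.003 (adjusted p = 0.209) for Slc39a6 and -0.53 (adjusted p = 0.223) for Pcbp1. After another quantile normalization neither these nor Lrp1 were called (adjusted p = 0.133, 0.138 and 0.135), and with the 18S covariate Pcbp1 was not (adjusted p = 0.158). Chosen after their values were seen, 3 genes passed the adjusted p but not the fold change. They were Hmox1, which breaks down haem, with 0.48 at week 11 (adjusted p = 0.0709), and the zinc importers Slc39a1 and Slc39a3, with 0.50 (adjusted p = 0.0742) and 0.52 (adjusted p = 0.072) at week 15.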

How the data were processed

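Expression was measured on Affymetrix Mouse Genome arrays after RNA of laser-dissected motoneurons had been amplified in 2 rounds. The authors used the GCRMA method of Affymetrix Expression Console (version not given in the sources used here) for normalization and deposited log2 intensities of 45101 probe sets on 35 arrays, 1 per mouse and none pooled. Genes were named from GEO's platform annotation, in which 34958 probe sets name 1 gene, 932 several and 9211 none, controls included. Following the study's methods, probe sets had to exceed the 20th centile of all values (2.40) on at least 4 arrays and the 30th centile of the SD (0.2414), and 31352 passed.

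Differences were tested in limma 3.58.1 (R 4.3.3) with 1 mean per group over all 5 groups and moderated variances, and with Benjamini-Hochberg adjustment within each of 6 comparisons over all probe sets tested. The script was tested on simulated data. The study's own test was Tukey's comparison after an analysis of variance, and it is given as an alternative. Replicates were separate mice, and their number limits the precision. The members and lists were chosen with earlier results of these data known, and members of the lists appear in the study's tables. Values are given for every member transcript. Of the other genes, those called at their brightest filtered transcript at week 11, at week 15, with G-CSF or between the ages are named, with the 3 genes most like Mt2 and Tfrc. Other settings were no filter, a stricter filter, another quantile normalization, only the groups compared, the replicate number as a block, the Tukey comparison, a fold change of 1.2, array weights, the 18S control as a covariate, and leaving out 3 arrays or each mouse in turn. Replicate numbers do not pair mice. Promoter sequences are RefSeq's (GRCm38.p6). Tables and plots were made with pandas 2.3.3 and matplotlib 3.10.9 under Python 3.11.15.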

Additional observations from a re-analysis of the deposited data

Results flagged for a closer look

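Single mice stood far from the rest of their group in 14 of 105 groups of member values, where chance gives about 1 in 20. WT mouse 6 of week 11 accounted for 3 of them, with 10.21 at Fth1 1448771_a_at (others 11.11 to 11.36), 7.28 at Fth1 1427021_s_at (others 9.82 to 10.33) and 9.18 at Tfrc 1452661_at (others 10.59 to 11.29). Vehicle mouse 5 accounted for another 3, with 5.91 at Mt3 (others 6.58 to 6.97), 5.32 at Slc11a2 1417584_at (others 3.67 to 4.34) and 4.32 at the 5′ section of the Tfrc control set (others 2.00 to 2.24). G-CSF mouse 1 was low at Mt1 1422557_s_at, with 9.17 (others 9.90 to 10.46), and high at Tfrc 1422967_a_at, with 5.06 (others 2.33 to 3.43). Mt3 was 9.14 in SOD1 mouse 8 of week 11 (others 7.47 to 8.07), and Slc40a1 1448566_at was 4.75 in SOD1 mouse 1 of week 11 (others 2.14 to 2.85). Slc30a1 1436164_at was 8.27 in WT mouse 5 of week 11 (others 6.72 to 7.25), and Slc11a2 1426441_at was 3.02 in G-CSF mouse 2 (others 3.98 to 4.49). Slc30a3 was 5.02 in G-CSF mouse 6 (others 4.73 to 4.85) and 5.18 in WT mouse 1 of week 15 (others 4.61 to 4.84).

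By the limma test of the difference between the SOD1 effects of week 15 and week 11, 3 of 50 other metal genes were called at their brightest transcript. Of all transcripts, 2.93% were called in it. The 3 genes were Slc39a6 (-1.38), Pcbp1 (-0.87) and Lrp1 (-0.94). Without the 3 arrays that stood apart Slc39a6 and Pcbp1 were not called, and after another quantile normalization none of the 3 was. Age, cohort and pump cannot be told apart in this test.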

How the results depend on the processing

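Of 1192 differences of member transcripts under 11 other settings, 1166 kept their side of the thresholds, 11 lost a call and 15 gained one, and no called difference changed sign. Of 3990 with 1 mouse left out, 3964 kept it, 7 lost a call and 19 gained one. The Tukey comparison of the methods with adjustment of its own p called 0 member transcripts for vehicle against WT at week 15 and 0 for WT at week 15 against week 11, and over all transcripts it called 266 and 56 for SOD1 against WT at weeks 15 and 11. With the false discovery rate taken from the test over the 5 groups, a setting chosen after the data were seen, it called 2 for SOD1 against WT at week 11 (Mt1 and Mt2), and 1550 and 694 over all transcripts. Array weights called 3 at week 11 (1114 over all transcripts) and 6 between the WT cohorts (3827). The 18S covariate called 0 between the WT cohorts (36 over all transcripts). Without the 3 arrays that stood apart, 2 were called at week 11 and 5 between the WT cohorts. The cause was not tested. Leaving out 1 mouse gave 0 to 2 calls for SOD1 against WT at week 11, 4 to 6 for vehicle against WT, 0 to 1 for G-CSF against WT and 2 to 5 between the WT cohorts, of which the 5 came without WT mouse 6 of week 11. With the replicate number as a block, the counts were 0 at week 11, 5 for vehicle against WT, 0 for G-CSF against vehicle, 0 for G-CSF against WT and 4 between the WT cohorts. Same-numbered mice correlated at -0.125 to 0.099, and 1 mouse in each of 3 comparisons correlated best with its own number, so the numbers do not pair the mice. Without the filter, the control sections of Tfrc were not among the transcripts tested, and 4 were called for vehicle against WT. Among the other metal genes, the call of Lrp1 at week 11 stood in each setting run (0.73 to 0.97), that of Pcbp1 at week 15 in 5 of 11 other settings and that of Ireb2 in 9 of 11. For the difference between the ages, Slc39a6 was called in 25 and Pcbp1 in 23 of 35 fits without 1 mouse. Signal over background limits the differences of transcripts near the array medians, such as Tfrc 1422967_a_at and the Tfrc control sections.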
